A study of Mus musculus with 9 samples.

Results

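The genes described here are 32 genes of the ATF4 stress response and of amino acid supply, measured by RNA sequencing in B16F10 cells. They were listed by name, as known targets and partners of ATF4, serine synthesis enzymes and amino acid transporters, with earlier results of these data known. All 32 were found among the 55487 genes of the deposited count table, and 31 of them were among the 15237 genes with enough counts to test. B16F10 is an established mouse melanoma line. All libraries came from this line, grown in DMEM with fetal bovine serum, antibiotics and added L-glutamine, and collected at 6 h. The media group received no agent, the IFNγ group received interferon gamma at 50 ng/mL, and the IFNγ plus FK866 group received the same dose of interferon gamma with FK866 at 50 nM. The treatment protocol speaks of mouse or human IFNγ and gives the dose for the mouse protein. FK866 inhibits NAMPT, an enzyme of the salvage pathway that makes NAD. No vehicle is named for the media group, and no group with FK866 alone is part of the comparisons. Each of the 3 groups has 3 libraries, and every title carries the word Control with the number 3, 4 or 5, also where IFNγ was given. What these numbers stand for is not stated, so below they are only called the number 3, number 4 and number 5 libraries. Each number has 1 library of each agent. The labels do not say that libraries come from separate cultures, so the p-values reflect only how far these libraries spread, which may be technical. Where the number is not part of the fit, this spread includes the differences between numbers.

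ATF4 is a transcription factor of the integrated stress response. Kinases that sense amino acid shortage, unfolded protein in the endoplasmic reticulum, double-stranded RNA or lack of heme phosphorylate the translation initiation factor eIF2, which lowers general protein synthesis while the ATF4 mRNA is translated more. ATF4 protein then pairs with other bZIP proteins, among them C/EBP proteins, and switches on genes for amino acid import, for the synthesis of serine, glycine and asparagine, for tRNA charging and for feedback on the pathway itself. Since much of the control of ATF4 lies in its translation, the level of its mRNA is no measure of the protein. Melanoma cells, like other fast-growing cells, draw on these enzymes and transporters for protein and nucleotide synthesis.

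Total counts ran from 15317003 to 18466972 per library. All 7 melanocyte markers were present, between 97.4 and 7990 CPM (counts scaled to library size, with TMM factors), with Tyrp1 the highest. Of 7 leukocyte markers 5 had 0 counts in every library and the highest value of any was 11.3 CPM, for Cd68. Of 10 fibroblast, endothelial and keratinocyte markers 4 had 0 counts throughout, and the highest value was 7.29 CPM, for Pdgfra. In such bulk libraries, fewer expressing cells and less RNA per cell cannot be told apart.

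To compare genes with each other, counts were also divided by exon length (RPKM, mean of 9 libraries). Shmt2, the mitochondrial enzyme that turns serine into glycine, was highest at 127 RPKM, with a range of 98.6 to 162 over libraries. Atf4 followed at 82.1 RPKM, Phgdh, which opens serine synthesis, at 73.8, and Asns, the asparagine synthetase, at 72.6, and the ranges of these neighbours overlapped. The light and heavy chains of a transporter of large neutral amino acids, Slc7a5 and Slc3a2, stood at 62.8 and 56.1 RPKM, with Wars, the cytosolic tryptophanyl-tRNA synthetase, between them at 57.5. Among the regulators and feedback genes other than Atf4, Eif4ebp1 was at 43.4 RPKM, Atf5 at 23.3, Cebpb at 16.1 and Ddit4 at 14.6. The others were lower: Chac1 was at 7.95 RPKM, Sesn2 at 7.67, Ddit3 at 6.96, Trib3 at 6.39, Cebpg at 6.05, Ppp1r15a at 3.95 and Nupr1 at 2.21. Cth, the enzyme that makes cysteine from cystathionine, was at 1.42 RPKM and Vldlr, a lipoprotein receptor, at 0.387. Stc2, a secreted glycoprotein, had 0 counts in all 9 libraries, which allows a level of up to 0.0198 CPM over the 9 libraries (3 counts, counting error only).

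ATF4 and C/EBP partners bind a composite element for which the letters TGATGNAA were searched on both strands of the RefSeq promoter windows (GRCm38.p6, 250 bases before to 50 after each transcript start). Of the 32 members 26 had an entry. The letters were found in 3.97% of all 32851 windows and for 4.51% of all 27025 genes in the table. Among the members they were found for 7 of 26 genes (26.9%): Asns, Slc7a11, Chac1, Nupr1, Pck2, Vldlr and Trib3. In Trib3 the match lies after the transcript start. A match is a description of these windows and not a measured binding site, and no match says only that these letters are not in the window. The stretches below carry the matches that lie before a start. Each is written 5′ to 3′ along the gene, and capitals mark the matching letters, which read as the reverse complement where the element lies on the opposite strand.
Asns, asparagine synthetase, minus strand, chr6:7693210-7693252: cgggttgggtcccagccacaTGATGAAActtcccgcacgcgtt
Slc7a11, cystine transporter, minus strand, chr3:50443633-50443699: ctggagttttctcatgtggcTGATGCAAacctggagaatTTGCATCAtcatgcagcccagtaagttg
Chac1, glutathione-degrading enzyme, plus strand, chr2:119351029-119351076: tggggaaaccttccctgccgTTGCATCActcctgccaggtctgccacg
Nupr1, stress-induced nuclear protein, minus strand, chr7:126625553-126625600: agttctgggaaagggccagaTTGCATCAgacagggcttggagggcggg
Pck2, mitochondrial PEP carboxykinase, plus strand, chr14:55540143-55540190: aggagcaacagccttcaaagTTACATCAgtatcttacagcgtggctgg
Vldlr, lipoprotein receptor, the second of its starts in the table, plus strand, chr19:27216800-27216847: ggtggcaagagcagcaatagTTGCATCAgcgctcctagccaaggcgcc

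Slc7a11 holds the letters in both orientations, and each of the other 5 shown holds them in 1. For the interferon response, the letters TTCNNNGAA (the GAS element) were found in 8.3% of all windows, for 9.55% of all genes and for 4 of the 26 members (15.4%), and GAAA, any 2 bases and GAAA again (the ISRE element) in 3.44% of windows, for 3.99% of genes and for 2 of the 26 members (7.69%). The windows of Aldh1l2, Cth, Eif4ebp1, Slc1a5, Slc7a5 and Wars were not used here.

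Most of these genes differed between the numbers in the titles. Of the 31 tested members 27 differed between the numbers in the test of any difference (edgeR quasi-likelihood F test with the agent as a term, adjusted p below 0.05), against a background of 51.8% of all tested genes. Between number 3 and number 5, 27 members were called (background 42%): 23 were higher in number 5 (background 20.8%) and 4 were higher in number 3 (background 21.1%). The median log2 difference of the members, number 3 minus number 5, was -0.68, while that of all tested genes was 0.0. All number 5 libraries lay above all number 3 libraries for 21 members, against 22.1% of all genes, and the levels ran in the order 5, 4, 3 under each of the 3 agents for 14 members, against 6.58% of all genes. The counts of 27, 23 and 21 include Vldlr, whose call was bound to follow, since it passed the count filter only through its number 5 libraries. The 4 members that were not called were Ddit3, Ppp1r15a, Wars and Slc38a2. Since the 3 libraries of a number may share a source, these tests tell numbers apart and not a named property of the cells.

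**Figure D1:**
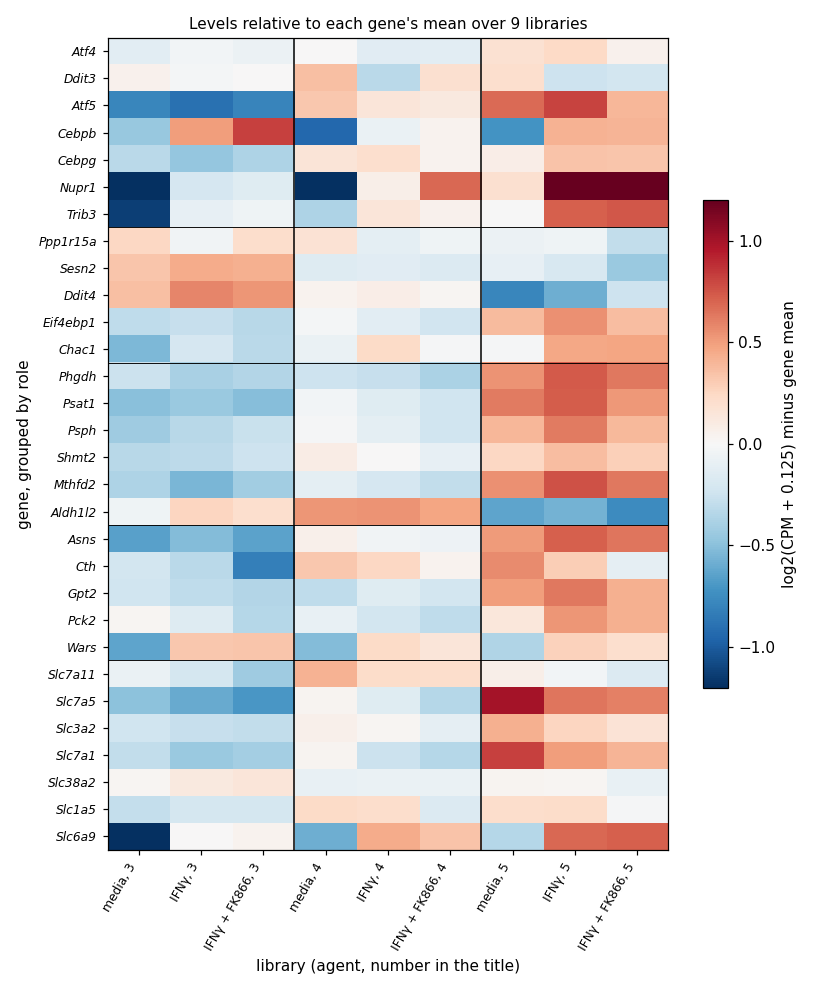
Level of each tested member except Vldlr in the 9 libraries, as log2(CPM + 0.125) minus the mean of the gene over the 9 libraries, with genes grouped by role and libraries by number and then by agent. Colours are limited to a difference of 1.2 either way, and most rows change with the number in the title (the number 5 libraries high, the number 3 libraries low) under each agent, while Wars, Cebpb and Slc6a9 change between media and both IFNγ groups.

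Among the regulators, Atf4 itself differed little. Its level (chromosome 15, 80255184 to 80257541, GRCm38) was 177, 194 and 219 CPM in the media libraries numbered 3, 4 and 5, 188, 176 and 227 CPM with IFNγ, and 184, 177 and 200 CPM with IFNγ plus FK866. The number 5 library was the highest under each agent, and number 5 was 1.18-fold above number 3 (log2 SE 0.06, adjusted p = 0.00557), while numbers 3 and 4 differed by a log2 of 0.0 (95% interval -0.13 to 0.14). Atf5, a related bZIP factor that is also controlled by translation, had 24.7, 53.4 and 68.1 CPM in medium alone, 22.8, 47.1 and 74.6 CPM with IFNγ, and 24.6, 46.3 and 56.1 CPM with IFNγ plus FK866. The numbers did not overlap for Atf5, and number 5 was 2.74-fold above number 3 (log2 SE 0.09, adjusted p = 1.14e-10). Cebpg, a bZIP partner of ATF4, was 1.56-fold higher in number 5 than in number 3, and Trib3, a pseudokinase that restrains ATF4, was 1.86-fold higher. Nupr1, a small nuclear protein of the stress response, was 3.27-fold higher in number 5 than in number 3 (log2 SE 0.21, adjusted p = 2.35e-06), from 17 to 198 counts per library. Cebpb went the other way at 1.19-fold higher in number 3 than in number 5 (adjusted p = 0.0315), and Ddit3, the CHOP factor of prolonged stress, did not pass the test.

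The feedback and growth genes were divided. Eif4ebp1, a repressor of cap-dependent translation, was 1.68-fold higher in number 5 than in number 3, and Chac1, which breaks down glutathione, was 1.6-fold higher. The pair that restrains the growth kinase mTORC1 was lower in number 5. Ddit4 had 31.4, 25.2 and 14.1 CPM in medium alone, 36.7, 25.8 and 16.2 CPM with IFNγ, and 35.4, 24.8 and 20.5 CPM with IFNγ plus FK866. Ddit4 fell in the order 3, 4, 5 under every agent without overlap, and number 3 was 2.04-fold above number 5 (log2 SE 0.10, adjusted p = 9.66e-08). Sesn2, which relays leucine and stress signals, was at 32.8 to 35.6 CPM in number 3, 23.2 to 23.7 CPM in number 4 and 19.1 to 24.3 CPM in number 5. It was 1.56-fold higher in number 3 than in number 5 (adjusted p = 9.37e-06), while numbers 4 and 5 overlapped. Ppp1r15a, which brings a phosphatase to eIF2, ranged from 9.36 to 13.7 CPM and was not called.

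The 6 serine, glycine and one-carbon enzymes were all called by the test of any difference (background 51.8%). Psat1, the second step of serine synthesis (chromosome 19, 15904678 to 15947337, GRCm38), had 134, 185 and 293 CPM in medium alone, 139, 171 and 314 CPM with IFNγ, and 133, 161 and 272 CPM with IFNγ plus FK866. Its 3 numbers formed separate ranges in the order 3, 4, 5, and number 5 was 2.16-fold above number 3 (log2 SE 0.06, adjusted p = 5.87e-11). Phgdh, the first step, was at 133 to 145 CPM in number 3, 134 to 146 CPM in number 4 and 253 to 290 CPM in number 5. Thus numbers 3 and 4 overlapped for Phgdh (log2 difference -0.03, 95% interval -0.17 to 0.11), and number 5 stood 1.92-fold above number 4 (log2 SE 0.07, adjusted p = 2.85e-09). Psph, the third step, was 1.76-fold higher in number 5 than in number 3, Mthfd2, a mitochondrial folate enzyme, 2.13-fold and Shmt2 1.52-fold. Aldh1l2, the mitochondrial enzyme that oxidises the formyl form of folate, did not follow the others. It had 136, 204 and 91.2 CPM in medium alone, 169, 206 and 95.4 CPM with IFNγ, and 163, 196 and 83.6 CPM with IFNγ plus FK866. Number 4 was highest and number 5 lowest under every agent, with number 4 standing 2.24-fold above number 5 (log2 SE 0.07, adjusted p = 3.48e-10) and number 3 standing 1.73-fold above number 5.

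Of the other amino acid and carbon enzymes, Asns had the largest fold between numbers. Its level (chromosome 6, 7675169 to 7693254, GRCm38), whose promoter stretch is printed above, was 119, 195 and 266 CPM in medium alone, 130, 181 and 307 CPM with IFNγ, and 120, 179 and 291 CPM with IFNγ plus FK866. By number the means were 123 ± 6.12, 185 ± 8.59 and 288 ± 20.6 CPM (SD, n = 3 libraries, 1 per agent), with no overlap, and number 5 was 2.34-fold above number 3 (log2 SE 0.07, adjusted p = 3.16e-11). Gpt2, a mitochondrial alanine transaminase, was 1.77-fold higher in number 5 than in number 3, Cth 1.66-fold and Pck2, which makes phosphoenolpyruvate in mitochondria, 1.44-fold. Cth rested on only 38 to 96 counts per library. Wars differed between numbers 5 and 3 by 1.02-fold, which did not pass the test.

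**Figure D2:**
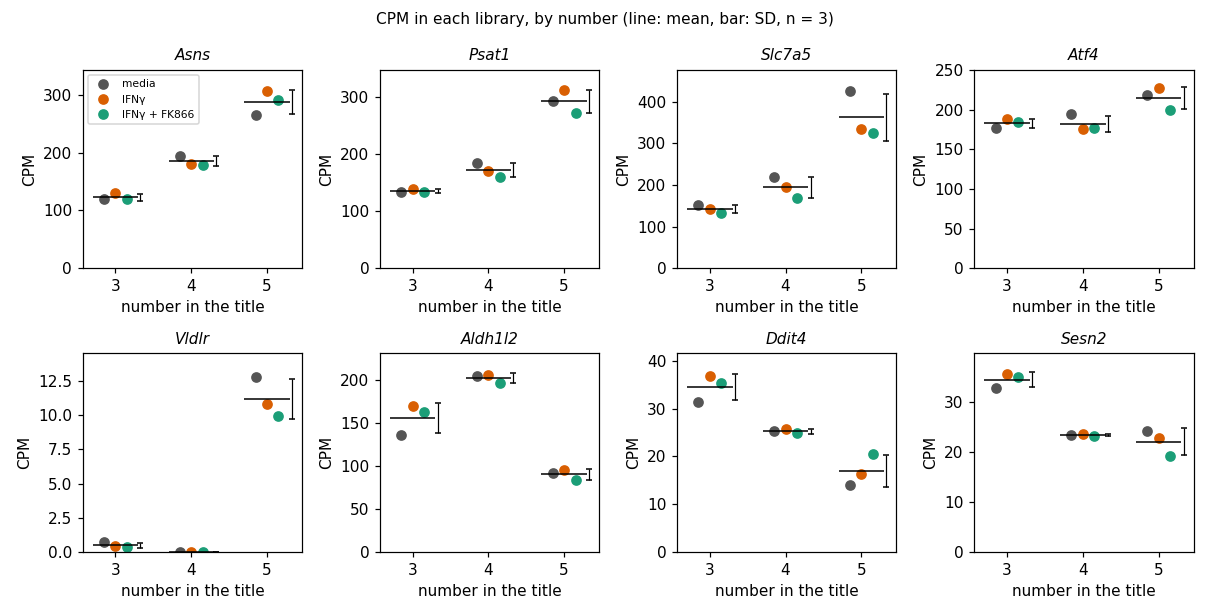
CPM of 8 members against the number in the title (3, 4 or 5), 1 point per library coloured by agent, with the mean as a line and the SD as a bar (n = 3). Asns, Psat1 and Slc7a5 step up from number 3 to 4 to 5 under each agent, Atf4 varies only between 176 and 227 CPM, Vldlr is at 0 in number 4, and Aldh1l2, Ddit4 and Sesn2 are lowest or near lowest in number 5.

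Of the 7 amino acid transporters 6 were higher in number 5 than in number 3 (background 20.8%), and Slc38a2 was not called. Slc7a5, the light chain of the leucine transporter (chromosome 8, 121881150 to 121907694, GRCm38), had 152, 219 and 427 CPM in medium alone, 141, 194 and 335 CPM with IFNγ, and 132, 169 and 326 CPM with IFNγ plus FK866. The ranges of the 3 numbers did not overlap, and number 5 was 2.55-fold above number 3 (log2 SE 0.06, adjusted p = 5.69e-12). Its heavy chain Slc3a2 was 1.47-fold higher, the arginine and lysine transporter Slc7a1 1.94-fold, the glycine transporter Slc6a9 1.69-fold and the glutamine transporter Slc1a5 1.29-fold. Slc7a11, the cystine transporter, was highest in number 4, at 182 to 210 CPM, above 117 to 149 CPM in number 3 and 141 to 166 CPM in number 5. Number 4 was 1.44-fold above number 3 and 1.25-fold above number 5 for this gene. Slc38a2, a neutral amino acid transporter that rises on amino acid shortage, kept within 314 to 368 CPM and was not called by the test of any difference.

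Vldlr differed by the largest factor of the members. It had 11, 0 and 215 counts in the media libraries numbered 3, 4 and 5, 6, 0 and 183 counts with IFNγ, and 6, 0 and 152 counts with IFNγ plus FK866. The number 4 libraries had no count, the number 3 libraries 23 and the number 5 libraries 550 in all. Taking 3 counts over the 3 libraries of a number as the floor, Vldlr was at least 202-fold higher in number 5 than in number 4 and at least 8.43-fold higher in number 3 than in number 4, and it was 24-fold higher in number 5 than in number 3. Vldlr entered the test only through its number 5 libraries, so its call between numbers was bound to follow.

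**Figure D3:**
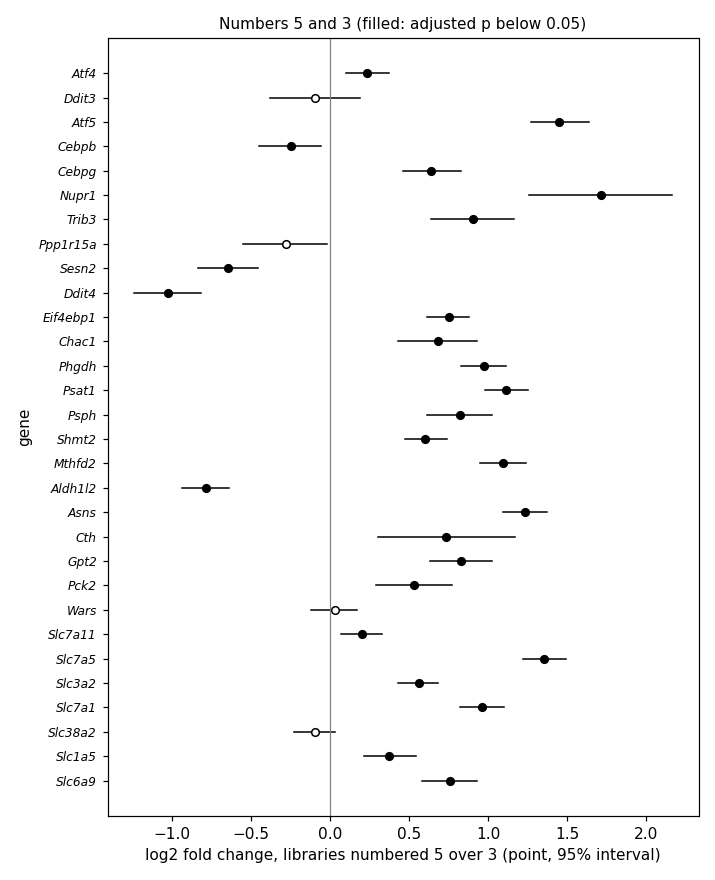
Log2 fold change of the number 5 libraries over the number 3 libraries for each tested member except Vldlr, as the estimate (point) with its 95% interval (line), filled where the adjusted p is below 0.05. Filled points lie to the right for most genes, from Slc7a11 at 1.15-fold to Nupr1 at 3.27-fold, and to the left for Cebpb, Sesn2, Ddit4 and Aldh1l2.

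The other number contrasts gave fewer calls. Between numbers 3 and 4, 18 members were higher in number 4 (background 15.8%) and 5 were higher in number 3 (background 15.2%), with a member median log2 of -0.24. Those 5 were Cebpb, Sesn2, Ddit4, Slc38a2 and Vldlr, the last on 23 counts in number 3 against 0 in number 4. Between numbers 4 and 5, 19 members were higher in number 5 (background 15.2%) and 3 were higher in number 4 (background 15.9%), with a member median log2 of -0.30. The 3 were Ddit4, Aldh1l2 and Slc7a11, while the 19 include Vldlr, whose call was bound to follow, as stated above. The count between numbers 3 and 4 fell from 23 members to 12 without the agent term and 13 without the IFNγ libraries, and 15 without the IFNγ library numbered 3.

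Beyond the members, 7 further lists of the pathway were compared between numbers, against the same background of 20.8% of all genes higher in number 5 and 21.1% higher in number 3. Cytosolic tRNA synthetases other than Wars, which charge tRNAs and include ATF4 targets, were mostly higher in number 5: 13 of 19 were above number 3 and 0 were below. Aars, for alanine, was 1.76-fold higher in number 5 than in number 3, and Cars, for cysteine, was 1.62-fold higher. Chaperones and other genes of the unfolded protein response had 7 of 18 higher in number 5 and 1 higher in number 3, and Hyou1, a chaperone of the endoplasmic reticulum, was 1.84-fold higher in number 5. Other one-carbon and glycine enzymes were split, with 3 of 13 higher in number 5 and 4 higher in number 3. Gcsh, of the glycine cleavage system, was 2.25-fold higher in number 5. Other amino acid transporters had 4 of 16 higher in number 5 and 2 higher in number 3. The eIF2 kinases and their partners had 4 of 15 higher in number 5 and 3 higher in number 3, and the remaining ATF, CREB and C/EBP factors had 4 of 11 and 3. The counts of the transporters and of the eIF2 list lay near the background. Of the 3 tested tryptophan-using enzymes 0 differed (edgeR, with 0 at an unadjusted p below 0.05). Impact, an inhibitor of the amino acid sensor GCN2, was 1.65-fold higher in number 3 than in number 5, and Eif2ak2, the kinase PKR, was 1.59-fold higher.

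The effect of the cytokine on these genes at 6 h was read from the IFNγ and media groups. Of the 31 tested members 2 rose, Wars and Cebpb, and 0 fell, against a background of 3.3% of all genes called, 2.8% higher and 0.499% lower. With the number in the titles as a block, 6 members rose (background 8.12%) and 3 fell (background 6.14%). The additional rises were Slc6a9, Nupr1, Trib3 and Chac1, and the falls were Ddit3, Slc7a1 and Slc7a5. With the block, none of the 3 falls was called when number 4 or number 5 was left out (adjusted p from 0.0565 to 0.432), and Chac1 was not called when any 1 number was left out (0.0561 to 0.206). Wars, Cebpb, Slc6a9, Nupr1 and Trib3 stayed called with the block when any 1 number was left out (edgeR adjusted p at most 0.00777). The member median was a log2 of 0.04 without the block and 0.02 with it, and that of all genes was -0.01 in each. None of the 6 serine, glycine and one-carbon enzymes passed the test in either fit (edgeR, with 0 at an unadjusted p below 0.05 in each).

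Wars (chromosome 12, 108860030 to 108894174, GRCm38) had 124, 134 and 150 CPM in the media libraries numbered 3, 4 and 5 and 241, 226 and 233 CPM with IFNγ. Every IFNγ library was above every media library, the means were 136 ± 13.0 and 233 ± 7.56 CPM (SD, n = 3), and the log2 fold change was 0.78 (SE 0.10, adjusted p = 0.002). This gene is known as an interferon target as well as an ATF4 target. Cebpb, a C/EBP factor of inflammation and differentiation (chromosome 2, 167688915 to 167690418, GRCm38), had 16.3, 11.6 and 13.6 CPM in media and 31.9, 21.2 and 30.1 CPM with IFNγ. The groups did not overlap, with a log2 fold change of 1.01 (SE 0.23, adjusted p = 0.0497; 1.18e-07 with the block). Without the block this call is close to the threshold: the adjusted p was 0.0736, 0.207 and 0.167 without the media libraries numbered 3, 4 and 5. It was 0.163 and 0.151 without the IFNγ libraries numbered 3 and 5, 0.0786 without the IFNγ plus FK866 library numbered 5, 0.0513 with RLE factors and 0.0815 with limma-voom. With the block, Cebpb stayed called without number 3, 4 or 5 (edgeR adjusted p = 6.89e-07, 1.11e-05 and 2.43e-05). Cebpb shares exon sequence with Tmem189 on the other strand, at 94.9 to 218 CPM, whose log2 fold change was -0.54 (adjusted p = 0.304, or 1.78e-06 with the block). Without a stated strand setting, reads of such pairs cannot be told apart. The same holds for Slc6a9 with B4galt2 (0.558 to 7.05 CPM) and for Ddit3 with Mars (74.8 to 107 CPM). It also holds for Atf5 with Nup62 (71.9 to 120 CPM), Psph with Cct6a (342 to 430 CPM) and Aldh1l2 with D10Wsu102e (108 to 151 CPM). Cebpg shares exon sequence with Gm44836 on its own strand (0.395 to 2.36 CPM). Each of the partners named after Tmem189 differed between numbers, and none of them was called with IFNγ in either fit.

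Slc6a9, the glycine transporter GLYT1 (chromosome 4, 117834506 to 117875198, GRCm38), had 13.8, 23.0 and 27.3 CPM in media and 34.8, 47.2 and 55.8 CPM with IFNγ. All IFNγ libraries were above all media libraries, and each number kept its rank. The log2 fold change was 1.10 (SE 0.27), which missed the threshold without the block (adjusted p = 0.0688) and passed it with the block (1.12, SE 0.08, adjusted p = 2.65e-09). Nupr1 had 1.07, 1.70 and 5.07 CPM in media and 3.82, 4.63 and 11.7 CPM with IFNγ, so it was higher with IFNγ within each number while the groups overlapped. Its log2 fold change was 1.41 with the block (SE 0.22, adjusted p = 7.91e-05) and 1.36 without it (adjusted p = 0.539). Trib3 went from 5.77, 9.81 and 12.7 CPM in media to 11.9, 14.1 and 21 CPM with IFNγ. It too was higher within each number, with a log2 of 0.74 with the block (SE 0.13, adjusted p = 2.14e-04) and an adjusted p of 0.524 without it. Chac1 had 8.72, 12.0 and 12.6 CPM in media and 11, 14.9 and 17.6 CPM with IFNγ (log2 0.38 with the block, adjusted p = 0.0347, and 0.866 without it).

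Atf4 did not change with IFNγ by more than the spread: its log2 fold change was 0.0 (95% interval -0.28 to 0.28, or -0.14 to 0.13 with the block). Ddit3 had 12.2, 15.2 and 13.6 CPM in media and 11.6, 9.38 and 9.89 CPM with IFNγ. It was lower with IFNγ within each number, with a log2 of -0.41 (adjusted p = 0.404, or 0.0449 with the block). Slc7a1 had 277, 346 and 598 CPM in media and 249, 283 and 480 CPM with IFNγ. It was lower within each number, and fell by 0.25 on the log2 scale with the block (adjusted p = 0.01; 1 without it). Slc7a5 fell by 0.22 with the block (adjusted p = 0.0258; 1 without it), and was lower with IFNγ within each number. In all, IFNγ was above media within each of the 3 numbers for 8 members (20.2% of all genes) and below it for 6 (22.3% of all genes). The IFNγ group lay wholly above the media group for 3 members, Wars, Cebpb and Slc6a9, against 7.97% of all genes. It lay wholly below the media group for 1 member, Ddit3, and the share of all genes that did so was not computed.

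**Figure D4:**
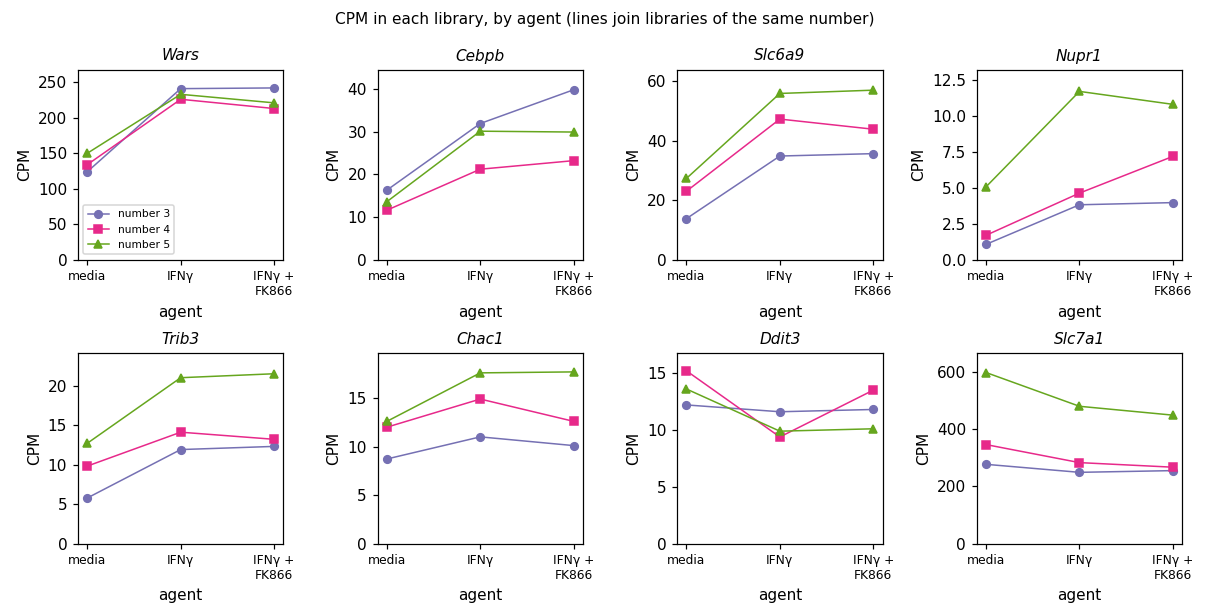
CPM of 8 members by agent (media, IFNγ, IFNγ plus FK866), 1 point per library, with lines joining the libraries of the same number. Wars, Cebpb and Slc6a9 rise from media to IFNγ without overlap, Nupr1, Trib3 and Chac1 rise along each line from media to IFNγ with the number 5 library the highest under each agent, and Slc7a1 and Ddit3 are lower with IFNγ along each line. For Ddit3 the media and IFNγ groups do not overlap.

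The comparison of IFNγ plus FK866 with media shares its media libraries with the previous one, so the values are given beside those and not as a second finding. Here too 2 members rose, Cebpb by a log2 of 1.17 (SE 0.23, adjusted p = 0.0231) and Wars by 0.73 (SE 0.10, adjusted p = 0.00293), and 0 fell (background 3.36%, with 2.76% higher and 0.597% lower). With the block 5 rose (background 8.53%) and 3 fell (background 7.61%). The rises were Wars, Cebpb, Slc6a9 at 1.10, Nupr1 at 1.6 and Trib3 at 0.73. The falls were Slc7a5 at -0.32 (adjusted p = 8.97e-04), Slc7a1 at -0.30 (adjusted p = 0.00237) and Slc7a11 at -0.26 (adjusted p = 0.00396), none of which was called without the block. With the block, Slc7a11 lost its call without number 3 (adjusted p = 0.0694) and Slc7a1 without number 4 (0.0505). The 5 rises stayed called with the block when any 1 number was left out (edgeR adjusted p at most 0.00797). Slc7a11 had 149, 210 and 166 CPM in media and 117, 182 and 141 CPM with IFNγ plus FK866, lower within each number. Atf4 had a log2 of -0.07 and Ddit3 of -0.21, and neither was called. Cebpb lost its call without the block when the media library numbered 4 or 5 was left out (adjusted p = 0.114 and 0.0949), or the IFNγ plus FK866 library numbered 3 or 5 (0.0733 and 0.0587).

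What NAMPT inhibition adds to IFNγ over 6 h was read from the groups with and without FK866. None of the 31 members was called by edgeR without the block (background 0%) or with it (background 0.0197%, 3 genes, with 0.0131% higher and 0.00656% lower). At an unadjusted p below 0.05 there were 0 members without the block in edgeR, DESeq2 and limma-voom. With the block there was 1 in edgeR and 1 in DESeq2, and 2 in edgeR when number 3 was left out. The member median was a log2 of -0.07 with the block, and that of all genes -0.01. IFNγ plus FK866 lay below IFNγ within each of the 3 numbers for 12 members (16.2% of all genes), and above it for 1, Ddit3 (12.1% of all genes).

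With the block the log2 fold changes of the members ran from -0.37 for Cth to 0.20 for Ddit3, and these ends of the range were picked after their values were seen. Cth had 3.03, 4.57 and 4.74 CPM with IFNγ and 2.12, 3.95 and 3.54 CPM with FK866 added, a difference between few counts. Ddit3 had 11.6, 9.38 and 9.89 CPM with IFNγ and 11.8, 13.5 and 10.1 CPM with FK866 added, and its groups overlapped (95% interval -0.09 to 0.48). For Atf4 the log2 was -0.07 with an interval of -0.20 to 0.07. Slc1a5 had the smallest p of the members, with 48.3, 64.7 and 65.2 CPM with IFNγ and 48.2, 50.0 and 55.5 CPM with FK866 added. Its log2 was -0.20 (95% interval -0.37 to -0.04, edgeR unadjusted p = 0.0172, adjusted p = 0.987), and the number 3 libraries were nearly level. Slc7a11 stood at -0.12 (-0.24 to 0.01) and Psat1 at -0.12 (-0.25 to 0.01).

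**Figure D5:**
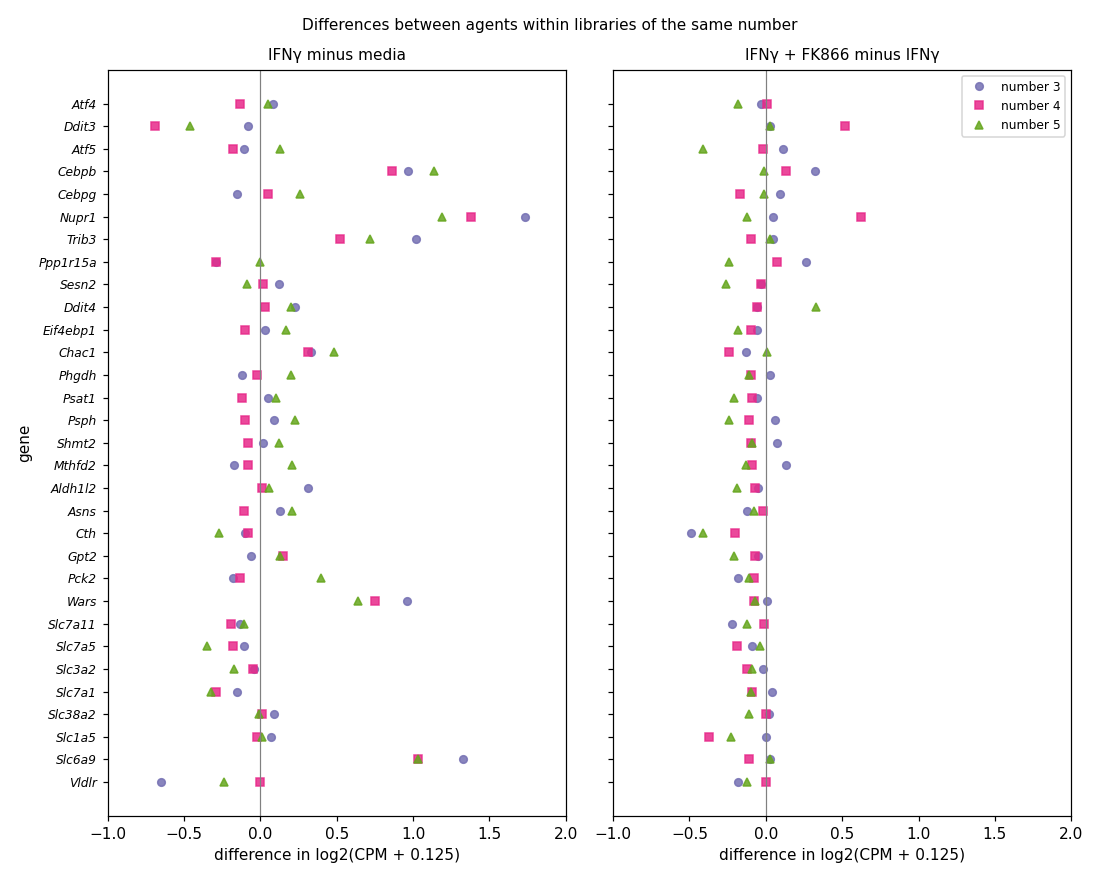
Difference in log2(CPM + 0.125) between agents within the libraries of the same number, for each tested member (left, IFNγ minus media; right, IFNγ plus FK866 minus IFNγ), 1 marker per number. On the left Cebpb, Nupr1, Trib3, Wars and Slc6a9 have all 3 markers well above 0; on the right most markers lie near 0, with 12 members below 0 in all 3 numbers.

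The other lists of the pathway were read against the same background of 3.3% of all genes called without the block and 14.3% with it. Among the eIF2 kinases and their partners 1 of 15 rose (6.67%), or 2 with the block (13.3%). Eif2ak2, which encodes the interferon-induced kinase PKR, had 57.6, 45.4 and 36.9 CPM in media and 223, 173 and 142 CPM with IFNγ (log2 1.94, SE 0.24, adjusted p = 0.0013). The other was Ppp1r15b, the constitutive paralogue of Ppp1r15a, at 0.20 with the block (adjusted p = 0.0376). Of 11 tested ATF, CREB and C/EBP family genes and partners 3 rose (27.3%), or 5 with the block (45.5%). Atf3, a stress-induced repressor, had 3.33, 7.94 and 4.54 CPM in media and 22.9, 44.8 and 22.3 CPM with IFNγ (log2 2.5, SE 0.43, adjusted p = 0.0104), and Cebpd rose only with the block (log2 1.64, adjusted p = 9.41e-07). The other 2 without the block, named after their values were seen, were Crebrf (log2 0.69, adjusted p = 0.0108) and Batf3 (log2 1.71, adjusted p = 0.0396).

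Of the 19 other tRNA synthetases 1 rose without the block (5.26%) and 5 with it (26.3%). Yars, for tyrosine, had 58.9, 65.5 and 73.7 CPM in media and 104, 113 and 116 CPM with IFNγ (log2 0.75, SE 0.11, adjusted p = 0.00455), and Kars, for lysine, rose by 0.36 with the block (adjusted p = 3.80e-04). Of 16 other amino acid transporters 0 changed without the block (edgeR, 1 at an unadjusted p below 0.05) and 2 fell with it, Slc38a1 by 0.34 and Slc6a6 by 0.25 on the log2 scale. Of 13 other one-carbon and glycine enzymes 0 changed without the block (0 at an unadjusted p below 0.05), and Mthfd1l fell by 0.28 with it. Of 18 genes of the unfolded protein response 0 changed without the block (1 at an unadjusted p below 0.05), while with it Manf rose by 0.30 and Dnajb9 fell by 0.31. None of 3 tested tryptophan-using enzymes changed in either fit (0 at an unadjusted p below 0.05), and the genes of the tryptophan-degrading enzymes Ido1 and Tdo2 had 0 counts in every library. Ido2, another such gene, had too few counts to test, at 0 to 0.792 CPM.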

How the data were processed

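Polyadenylated RNA, per the labels, was sequenced from 9 libraries of B16F10 cells, 3 per agent. The authors deposited whole-number counts of reads for each Ensembl gene and library. Per the submitters' processing notes, the tools were cutadapt 1.16, STAR 2.7.6a, DESeq2 1.30.1 and featureCounts 1.6.3, and the builds were mm10 and GRCm38. Strand and annotation release: not given in the sources used here. The series text names a single-cell platform, but the table holds no values per cell and was treated as bulk.

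Of 55487 genes 55227 matched GENCODE M21 (GRCm38), the source of symbols, coordinates and exon lengths. Ddit3 has a second identifier there, at 0 counts. Exons of 10 members overlap another gene. Counts were tested in R 4.3.3 with edgeR 4.0.16 (filterByExpr, TMM, quasi-likelihood F test), all 9 libraries in 1 fit of agent means, with Benjamini-Hochberg adjustment over 15237 genes, which hold 99.89% of the counts, and calls at an adjusted p below 0.05. Number contrasts came from a fit of agent and number. CPM are TMM-normalised and RPKM divide them by exon length. The fit was also run on simulated counts, where the simulation of the agents held no difference between numbers. It therefore does not test the fit without the block under the differences between numbers seen here. Intervals are at 95%, and floors cover counting error only.

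The numbers in the titles pair the libraries. Deviations from the agent means had correlations of 0.555 to 0.728 in the 9 same-number pairs and of -0.477 to -0.112 in the 18 other pairs. Within an agent the deviations sum to 0 over its 3 libraries, so positive same-number values pull the other pairs below 0. The pairing is read from the same-number correlations and the titles. Values with the number as a block are therefore given where a call turns or a count moves by over 1.5 times.

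The members and lists were chosen with earlier results of these data known. All members are described by CPM or range. Fold changes are named for members called in either fit, Atf4 and Ddit3. For IFNγ plus FK866 against IFNγ they are named for Atf4, Ddit3 and the 3 smallest p-values with the block. For the numbers they are named for called members. From the other lists, up to 2 genes with the smallest p-values are named for IFNγ and for the numbers, and 1 such gene is not reported here. Alternatives were RLE factors, library totals, no filter, limma-voom (limma 3.58.1), DESeq2 1.42.0, the block, left-out libraries, and, for the numbers, no agent term and no IFNγ libraries. The interaction of number and IFNγ was added after seeing the data.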

Additional observations from a re-analysis of the deposited data

How the results depend on the processing

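The numbers in the titles set how much the agent comparisons call. For IFNγ against media, 503 genes and 2 members were called without the replicate block, and 2173 genes and 9 members with it; DESeq2 called 757 genes, and 1838 genes and 7 members with the block. RLE factors and limma-voom each called 1 member. With the block, leaving out number 3, 4 or 5 gave 1883, 1402 and 1830 genes and 8, 5 and 5 members. For IFNγ plus FK866 against media, 512 genes and 2 members became 2459 genes and 8 members with the block, 775 genes with DESeq2, and 2025 genes and 8 members with both; with the block and without number 3, 4 or 5 there were 2602, 1398 and 1889 genes and 8, 7 and 8 members. For IFNγ plus FK866 against IFNγ, 0 genes became 3 with the block, 1 with the block in DESeq2, and 8, 1 and 3 with the block and without number 3, 4 or 5. Leaving out 1 library without the block gave 314 to 487 genes and 1 to 2 members for IFNγ against media, with 314 genes without the media library numbered 4, the media library numbered 5 or the IFNγ library numbered 4. It gave 322 to 479 genes and 1 to 2 members for IFNγ plus FK866 against media, with 322 without the media library numbered 4 and 328 without the IFNγ plus FK866 library numbered 4. The member lost was Cebpb, in the libraries named in the report.

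Between numbers 3 and 4, 4725 genes and 23 members became 2672 genes and 12 members without the agent term and 2753 genes and 13 members without the IFNγ libraries, and leaving out 1 library gave 3415 to 5149 genes and 15 to 23 members (15 without the IFNγ library numbered 3). Between numbers 3 and 5, 6392 genes became 4194 without the IFNγ libraries. Between numbers 4 and 5, 4733 genes became 2484 without the agent term and 2309 without the IFNγ libraries, and 3062 (without the IFNγ library numbered 5) to 5358 with 1 library left out. Any difference between numbers was called for 7895 genes, for 5122 without the agent term and for 4994 without the IFNγ libraries. The cause of these shifts was not tested, beyond the smaller number of libraries where some were left out.

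Directions turned only for members that were not called without the block. For IFNγ against media, the log2 fold change of Atf4 was 0.0 with the block, RLE factors, limma-voom, DESeq2 and the block in DESeq2, -0.03 with library totals, and -0.04 and -0.02 with the block and without number 3 or 5. With 1 library left out and no block, it ran from -0.11 to 0.09 for Atf4, from -0.67 to 0.27 for Slc7a5 and from -0.61 to 0.12 for Slc7a1. In the same way, for IFNγ plus FK866 against IFNγ it ran from -0.15 to 0.04 for Atf4, from -0.29 to 0.03 for Slc7a11 and from -0.50 to 0.28 for Psat1. For IFNγ plus FK866 against media it ran from -0.14 to 0.02 for Atf4, from -0.82 to 0.18 for Slc7a5 and from -0.64 to 0.06 for Slc7a1. Beyond the members named in the report, the block changed the call of no member in the agent comparisons.

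Few counts limit the precision for Nupr1, Cth and Vldlr, and each group has 3 libraries.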

Other observations

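Whether the difference between both IFNγ groups and media varied with the number was tested as an interaction, an alternative chosen after seeing the data. None of the 31 members was called (edgeR quasi-likelihood F test, background 0.597%, smallest adjusted p = 0.215), and 3 of them (9.68%) had an unadjusted p below 0.05, against 11.3% of all tested genes. These were Pck2, Wars and Aldh1l2. Wars had a log2 difference from media of 0.96, 0.71 and 0.60 in numbers 3, 4 and 5 (unadjusted p = 0.013), so it was higher in each.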
